A study of Homo sapiens with 11 samples.

Results

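TFIIH is the general transcription factor that opens promoter DNA for RNA polymerase II, and its mRNAs were followed here in cells given miR-365a-3p. The mRNAs of 10 TFIIH subunits were taken by gene symbol from the 31325 genes listed. They are MNAT1, CDK7 and CCNH, which form the CDK-activating kinase (CAK), and the core subunits ERCC2, ERCC3, GTF2H1, GTF2H2, GTF2H3, GTF2H4 and GTF2H5. The group was chosen by the log2 signal of MNAT1, which was higher after miR-365a-3p in both cell lines, so its values after miR-365a-3p are given as a description, with no test. The other 9 subunits were taken for their place in the complex and were tested.

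The cells were MDA-MB-231, a human breast cancer line, and SKOV3, a human ovarian cancer line named SKOV3.ip1 in the study's methods. Each line was transfected with miR-365a-3p or with a control miRNA, and total RNA was labelled with biotin and hybridized to Illumina BeadChips. MDA-MB-231 cells had 3 arrays with miR-365a-3p and 3 with control miRNA, and SKOV3 cells had 3 with miR-365a-3p and 2 with control miRNA. The labels of the samples state 48 h of miR-365a-3p treatment (the control labels give 48 without a unit), while the design text of the series states 24 h, and the dose used for these arrays is not given in the sources used here. Since nothing says that the arrays of a group came from separate cultures, p-values measure only the spread between these arrays. Values are log2 signals after quantile normalization across the 11 arrays, and a difference is the mean with miR-365a-3p minus the mean with control miRNA. Whether the submitters used a plain log2 or a variance-stabilizing transformation is not stated. An array reads the amount of an mRNA relative to all others in the extract, so less RNA per cell and fewer cells that carry it cannot be told apart.

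The core of TFIIH holds 2 DNA-dependent ATPases. ERCC3 (XPB) drives the opening of the promoter, and ERCC2 (XPD) is the helicase that unwinds damaged DNA in nucleotide excision repair. GTF2H1, GTF2H2, GTF2H3 and GTF2H4 build the scaffold around them, and GTF2H5, the smallest subunit, stabilizes the core. In CAK, the kinase CDK7 pairs with cyclin H (CCNH), and MNAT1 stabilizes that pair and ties it to ERCC2. CAK phosphorylates the tail of RNA polymerase II and also activates the cyclin-dependent kinases of the cell cycle. A miRNA acts through its seed, bases 2 to 8 from the 5′ end, and lowers mRNAs that carry a matching site. The agent of the experiment is printed here as RefSeq gives it, with the seed in capitals. It lies at chr16:14309340-14309361 on the plus strand of GRCh38.p14, and miR-365b-3p from chr17 has the same sequence.
miR-365a-3p: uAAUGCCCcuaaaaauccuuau
Transcript sequences were not used here, so no site for this seed was searched in the subunits.

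The arrays of the treatments differed in the distribution of their deposited values. The 75th percentile lay between 7.56 and 7.65 with miR-365a-3p and between 7.86 and 7.93 on the control arrays of MDA-MB-231. On the SKOV3 arrays it lay between 7.67 and 7.80 with miR-365a-3p and between 7.98 and 8.04 with control miRNA. Replicate 1 with miR-365a-3p was the lowest array of each line. The 99th percentile went the other way. In MDA-MB-231 it lay between 12.51 and 12.64 with miR-365a-3p and between 12.28 and 12.32 with control miRNA. In SKOV3 it lay between 12.41 and 12.49 with miR-365a-3p and between 12.21 and 12.31 with control miRNA. The shift thus depended on the signal level. Its part in the results below was not tested, and each subunit is therefore also given on the deposited values. The labels of the cell lines were compared with 8 marker genes. In control cells, ERBB2 was 10.86 ± 0.07 (SD, n = 2) in SKOV3 and 7.61 ± 0.07 (SD, n = 3) in MDA-MB-231, and EPCAM, KRT8, ESR1 and PAX8 were also called higher in SKOV3, with differences from 0.78 to 2.73. CDH1 was called higher there by 0.15, but its SKOV3 mean of 7.43 was near the floor of the arrays, as was its signal in MDA-MB-231. VIM was high in both, and CDH1 and ESR1 lay in the lowest 6.21% of signals in MDA-MB-231 controls. KRT18, a keratin listed as a marker of SKOV3, was not called higher there (-0.11, limma adjusted p = 0.729). After miR-365a-3p, 2 of the 8 markers were called higher in MDA-MB-231 cells (EPCAM, 0.81, and KRT8, 0.86), and 2 were called lower in SKOV3 cells (ERBB2, -1.57, and PAX8, -0.70). The part of these marker shifts in the results was not tested.

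The stretches upstream of the transcription start are shown for MNAT1, for CDK7, CCNH and GTF2H5, which were called in both lines, and for ERCC3, the ATPase that opens the promoter, whose direction depended on the scaling. Each is the 250 bases before the start of the RefSeq gene in GRCh38.p14, 5′ to 3′ on the strand of the gene. CDK7 has another listed start nearby, so that the 10 subunits have 11 such windows. Capitals mark any match, on either strand, to the TATA core with its letters TATAAA or the CCAAT box as spelled in its name. They also mark the GC box GGGCGG, the extended ETS string CCGGAAG and the E-box CACGTG. None of these contains another.
MNAT1, chr14:60734511-60734760, plus strand: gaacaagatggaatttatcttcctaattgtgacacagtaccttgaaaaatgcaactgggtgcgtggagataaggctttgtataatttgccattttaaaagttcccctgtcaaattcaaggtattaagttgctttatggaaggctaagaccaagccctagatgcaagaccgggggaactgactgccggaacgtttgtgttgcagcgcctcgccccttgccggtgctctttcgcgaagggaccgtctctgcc
CDK7, chr5:69234636-69234885, plus strand: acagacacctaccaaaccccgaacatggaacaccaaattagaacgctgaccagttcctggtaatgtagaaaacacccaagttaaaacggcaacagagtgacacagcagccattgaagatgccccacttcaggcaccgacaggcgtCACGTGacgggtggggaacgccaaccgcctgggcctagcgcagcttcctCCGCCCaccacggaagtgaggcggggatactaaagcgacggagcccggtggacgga
CCNH, chr5:87412931-87413180, minus strand: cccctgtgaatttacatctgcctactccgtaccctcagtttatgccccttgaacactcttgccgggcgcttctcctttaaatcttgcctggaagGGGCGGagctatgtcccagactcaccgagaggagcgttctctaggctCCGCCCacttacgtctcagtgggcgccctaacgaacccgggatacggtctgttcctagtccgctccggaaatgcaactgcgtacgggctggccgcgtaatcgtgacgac
GTF2H5, chr6:158168100-158168349, plus strand: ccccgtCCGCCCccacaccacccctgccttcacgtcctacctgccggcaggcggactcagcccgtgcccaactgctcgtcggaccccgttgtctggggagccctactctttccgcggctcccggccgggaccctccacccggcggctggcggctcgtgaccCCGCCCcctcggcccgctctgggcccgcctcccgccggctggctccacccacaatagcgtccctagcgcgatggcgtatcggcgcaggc
ERCC3, chr2:127294145-127294394, minus strand: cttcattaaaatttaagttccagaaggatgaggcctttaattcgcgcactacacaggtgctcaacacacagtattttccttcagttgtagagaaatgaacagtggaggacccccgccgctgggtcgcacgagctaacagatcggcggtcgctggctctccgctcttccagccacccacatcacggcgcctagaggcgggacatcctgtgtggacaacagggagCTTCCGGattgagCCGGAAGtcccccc
The window of MNAT1 held none of the 5 motifs and had a GC content of 47.6%, the lowest of the 10 genes, where the median of all 35116 windows was 58%. The GC box was found in 7 of the 10 genes (42.6% of all windows), among them CDK7, CCNH and GTF2H5. The exact string CCGGAAG was found in ERCC3, GTF2H1, GTF2H2 and GTF2H3 (8.52% of all windows) and in none of MNAT1, CDK7, CCNH and GTF2H5. Shorter or variant forms of the ETS motif were not searched, so no lack of ETS motifs is read from this. The E-box was found in CDK7 and GTF2H1 (6.34% of all windows) and the CCAAT box in ERCC2 and GTF2H4 (32% of all windows). TATAAA (10.7% of all windows) had no match. A match is a string of letters and not a measured site.

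All 3 mRNAs of CAK were higher after miR-365a-3p in both cell lines, and the arrays of the treatments did not overlap within a line. The same held for 21.0% of all genes in MDA-MB-231, 23.7% in SKOV3 and 13.3% in both lines, genes near the floor of the arrays included. MNAT1 had the largest difference of the 10 subunits in each line. In MDA-MB-231 cells its signal was 8.72, 9.10 and 8.73 on the control arrays and 11.06, 10.85 and 10.75 with miR-365a-3p, a difference of 2.04 (standard error 0.20). In SKOV3 cells it was 8.27 and 8.23 on the control arrays and 10.48, 9.76 and 9.74 with miR-365a-3p, a difference of 1.74 (standard error 0.22). The groups lay far apart in both lines, and SKOV3 miR-365a-3p replicate 1 stood above the other miR-365a-3p arrays of its line. These differences chose the group and support nothing further.

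CDK7, the catalytic subunit of CAK, rose in both lines. In MDA-MB-231 cells, the control arrays read 9.89, 10.57 and 10.11 and the miR-365a-3p arrays 11.42, 11.36 and 11.22, which is a rise of 1.15 (standard error 0.17, limma adjusted p = 0.00146). In SKOV3 cells, 9.94 and 9.90 were measured with control miRNA and 10.86, 10.42 and 10.86 with miR-365a-3p, a rise of 0.80 (standard error 0.20, limma adjusted p = 0.0272). The spread between MDA-MB-231 control arrays was wide, with replicate 2 the highest, but it did not reach the miR-365a-3p arrays.

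CCNH, the cyclin of the kinase, rose by 0.97 in MDA-MB-231 cells (standard error 0.14, limma adjusted p = 0.00105). Its control arrays there were at 9.17, 9.48 and 9.39 and its miR-365a-3p arrays at 10.50, 10.36 and 10.10. In SKOV3 cells, where CCNH was at 9.01 and 8.67 with control miRNA and at 9.57, 9.26 and 9.51 with miR-365a-3p, the rise was 0.61 (standard error 0.16, limma adjusted p = 0.0313). The groups did not overlap, but the lowest miR-365a-3p array lay only a little above the higher control array in SKOV3 cells.

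**Figure D1:**
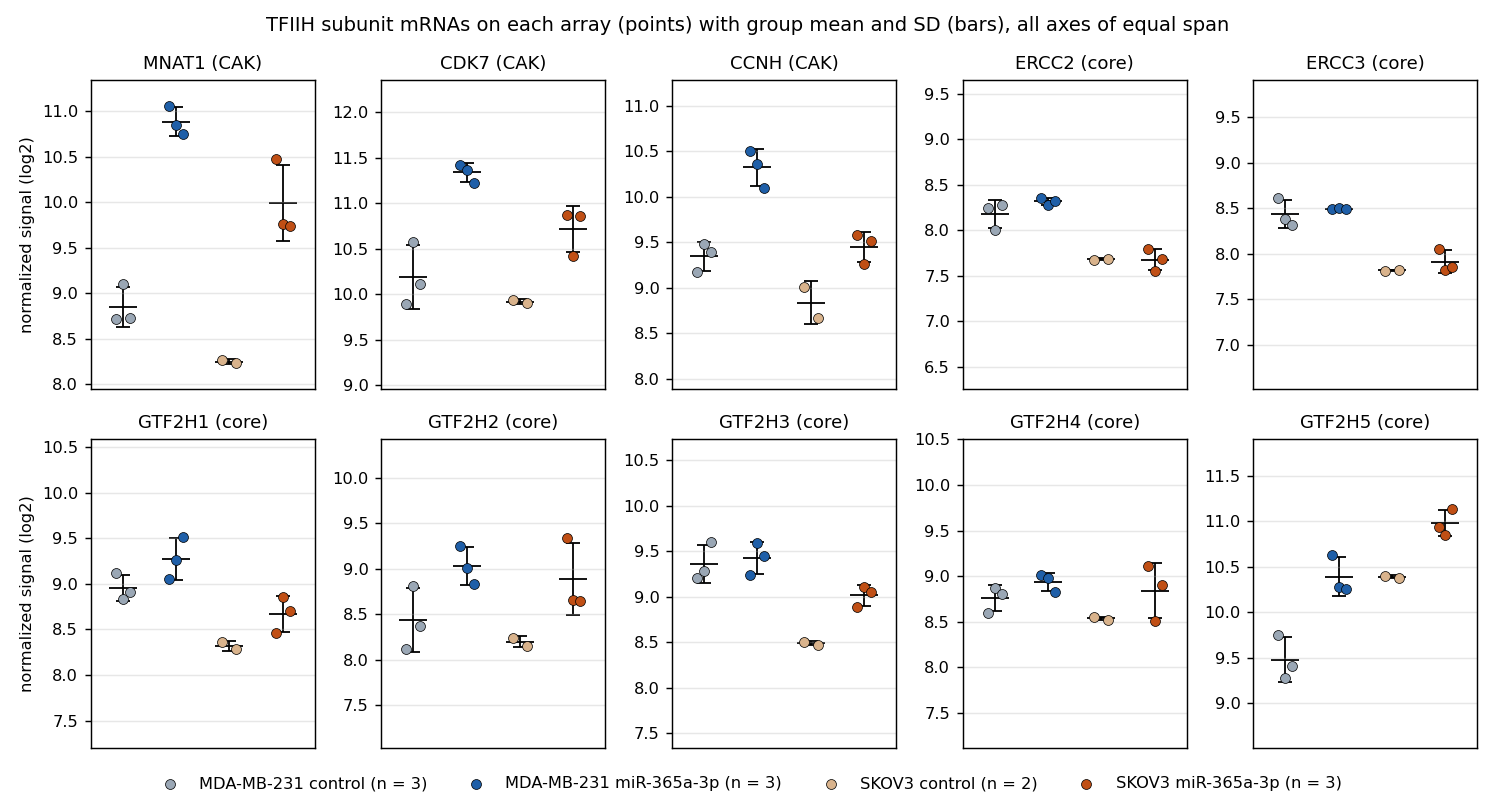
Normalized log2 signal (vertical axis) of each TFIIH subunit on each array, with 1 panel per subunit, axes of equal span, points for arrays and bars for the mean and SD of MDA-MB-231 control, MDA-MB-231 miR-365a-3p, SKOV3 control and SKOV3 miR-365a-3p. For MNAT1, CDK7, CCNH, GTF2H2 and GTF2H5, the miR-365a-3p points lie above all control points of the same line, while the points of ERCC2 and ERCC3 overlap.

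Among the 7 core subunits, GTF2H5 rose in both lines, GTF2H3 rose in SKOV3 cells, and no fall was called. GTF2H5, which is mutated in a form of trichothiodystrophy, read 9.75, 9.28 and 9.40 in MDA-MB-231 controls and 10.63, 10.28 and 10.25 with miR-365a-3p, a rise of 0.91 (standard error 0.14, limma adjusted p = 0.00157). In SKOV3 cells it read 10.40 and 10.38 with control miRNA and 10.94, 10.85 and 11.14 with miR-365a-3p, a rise of 0.59 (standard error 0.16, limma adjusted p = 0.0382). The signal of GTF2H5 in SKOV3 controls was thus as high as that in MDA-MB-231 cells with miR-365a-3p, and it rose further.

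GTF2H3, a scaffold subunit, was at 8.50 and 8.47 in SKOV3 controls and at 8.89, 9.11 and 9.05 with miR-365a-3p, a rise of 0.53 (standard error 0.13, limma adjusted p = 0.0291). In MDA-MB-231 cells its control arrays (9.21, 9.29 and 9.60) and miR-365a-3p arrays (9.24, 9.59 and 9.45) overlapped, and the difference was 0.06 (95% interval -0.21 to 0.33). The difference between the lines was itself not called for GTF2H3 (0.47, standard error 0.18, limma adjusted p = 0.289).

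GTF2H2, a subunit that binds ERCC2, lay above all controls of its line on every miR-365a-3p array but was not called in either line. It was called in MDA-MB-231 with the filter on low signals (adjusted p = 0.0472 from limma) and with an intensity trend in the variance (adjusted p = 0.0314), and in SKOV3 with that trend (adjusted p = 0.045). Its control arrays were at 8.12, 8.81 and 8.37 in MDA-MB-231 and its miR-365a-3p arrays at 9.25, 9.01 and 8.84, a difference of 0.60 (95% interval 0.08 to 1.11, limma adjusted p = 0.0914). In SKOV3 cells, 8.24 and 8.15 with control miRNA stood against 9.34, 8.66 and 8.65 with miR-365a-3p, a difference of 0.69 (95% interval 0.11 to 1.26, limma adjusted p = 0.12). SKOV3 miR-365a-3p replicate 1 was the highest array, as for MNAT1. GTF2H2 has near-identical copies on the same chromosome arm, and how the probes divide their signal is not known. The copy GTF2H2B, a transcribed pseudogene, differed by 0.56 (limma adjusted p = 0.126) and 0.61 (limma adjusted p = 0.191), GTF2H2D was close to the floor of the arrays (7.30 to 7.38 in all groups), and GTF2H2C was not found among the genes listed.

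The other 4 core subunits were not called after miR-365a-3p in either line. ERCC2 differed by 0.14 (95% interval -0.04 to 0.32) in MDA-MB-231 and by -0.01 (95% interval -0.20 to 0.19) in SKOV3 cells, and its arrays overlapped in both. The SKOV3 signal of ERCC2 was low, at 7.68 with either treatment, so a fall there could be understated. ERCC3 differed by 0.06 (95% interval -0.12 to 0.24) and 0.09 (95% interval -0.11 to 0.29), with miR-365a-3p arrays in MDA-MB-231 cells within 8.49 and 8.50 and control arrays from 8.32 to 8.61. The signs of both ATPases depended on the scaling, as given further on. GTF2H1 differed by 0.32 and 0.35, and GTF2H4 by 0.18 and 0.31. For GTF2H1 the arrays overlapped in MDA-MB-231 cells but not in SKOV3 cells, where 8.36 was the highest control value and 8.46 the lowest with miR-365a-3p.

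**Figure D2:**
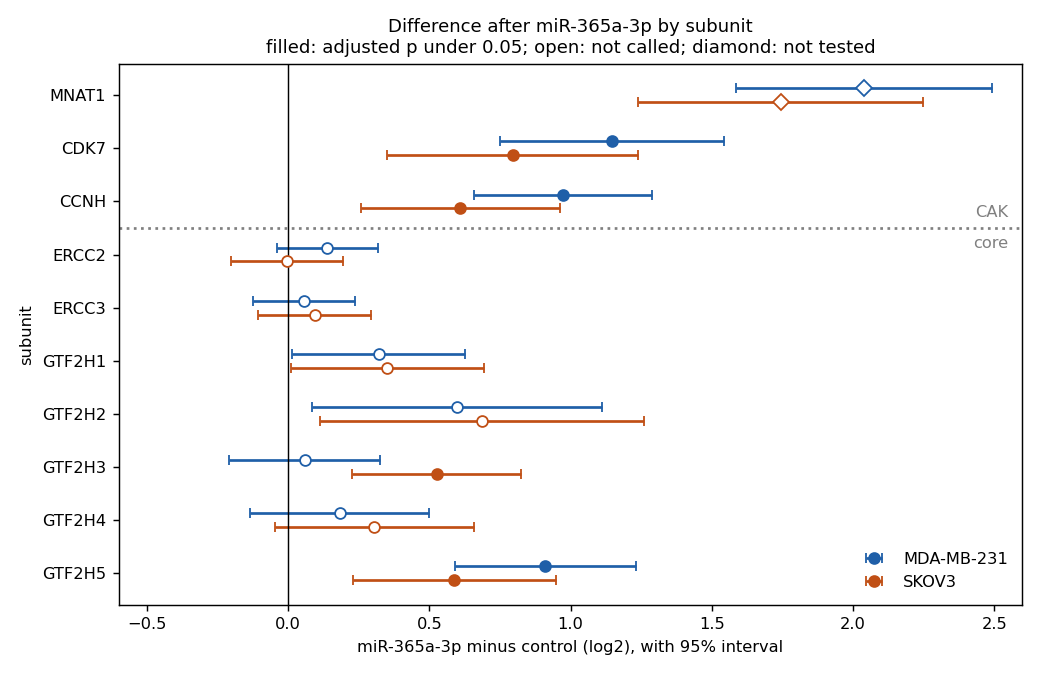
Difference of each subunit after miR-365a-3p (horizontal axis, log2, with its 95% interval) in MDA-MB-231 and SKOV3 cells, with filled circles for adjusted p under 0.05, open circles for subunits not called and diamonds for MNAT1, which was not tested. CDK7, CCNH and GTF2H5 lie to the right of 0 in both lines, at 0.59 to 1.15, and ERCC2 and ERCC3 lie within -0.01 and 0.14.

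Of the 9 subunits other than MNAT1, 3 rose in MDA-MB-231 and 4 in SKOV3 cells, and none fell past the threshold in either line. Over all 31325 genes, the share that rose was 14.4% in MDA-MB-231 and 7.25% in SKOV3 cells, and the share that fell was 11.7% and 7.11%. CDK7, CCNH and GTF2H5 rose in both lines, as did 5.76% of all genes, while 5.39% fell in both. In either direction, 26.1% of all genes were called in MDA-MB-231 and 14.4% in SKOV3. For 4 of the 9 (CDK7, CCNH, GTF2H2 and GTF2H5), the treatments did not overlap in either line with miR-365a-3p above control, against 13.3% of all genes (21.0% in MDA-MB-231 and 23.7% in SKOV3). The median difference of the 9 was 0.32 in MDA-MB-231 and 0.53 in SKOV3 cells, where the median of all genes was 0.01 in each. It was 0.18 and 0.35 for the 7 core subunits alone. The shares of all genes also cover genes near the floor, and none was taken among genes of like signal. Since the group was chosen through MNAT1 in the same contrasts, nothing is read from these counts.

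The direction of several core subunits depended on the scaling of the arrays, whereas that of CAK and GTF2H5 did not. On the deposited values without further normalization, 3 of the 9 subunits rose in MDA-MB-231 cells (7.26% of all genes) and 2 fell (17.9% of all genes). The 2 that fell were ERCC2, by 0.24 on the log2 scale (limma adjusted p = 0.0424), and ERCC3, by 0.32 (limma adjusted p = 0.00868). In SKOV3 cells, where 3.83% of all genes rose and 14.0% fell on this scale, ERCC2 and ERCC3 differed by -0.24 and -0.19 with no call. GTF2H3 and GTF2H4 differed by -0.19 and -0.15 in MDA-MB-231 cells, opposite to their sign after quantile normalization. MNAT1 differed by 1.92 and 1.54, CDK7 rose by 1.14 and 0.75, and GTF2H5 rose by 0.78 and 0.60. The rise of CCNH was 0.84 in MDA-MB-231 cells, whereas its SKOV3 difference of 0.43 was no longer called (limma adjusted p = 0.167), nor was the 0.27 of GTF2H3 (limma adjusted p = 0.426). GTF2H2 differed by 0.27 and 0.44 on this scale, GTF2H1 by 0.03 and 0.07, and GTF2H4 by 0.05 in SKOV3 cells.

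**Figure D3:**
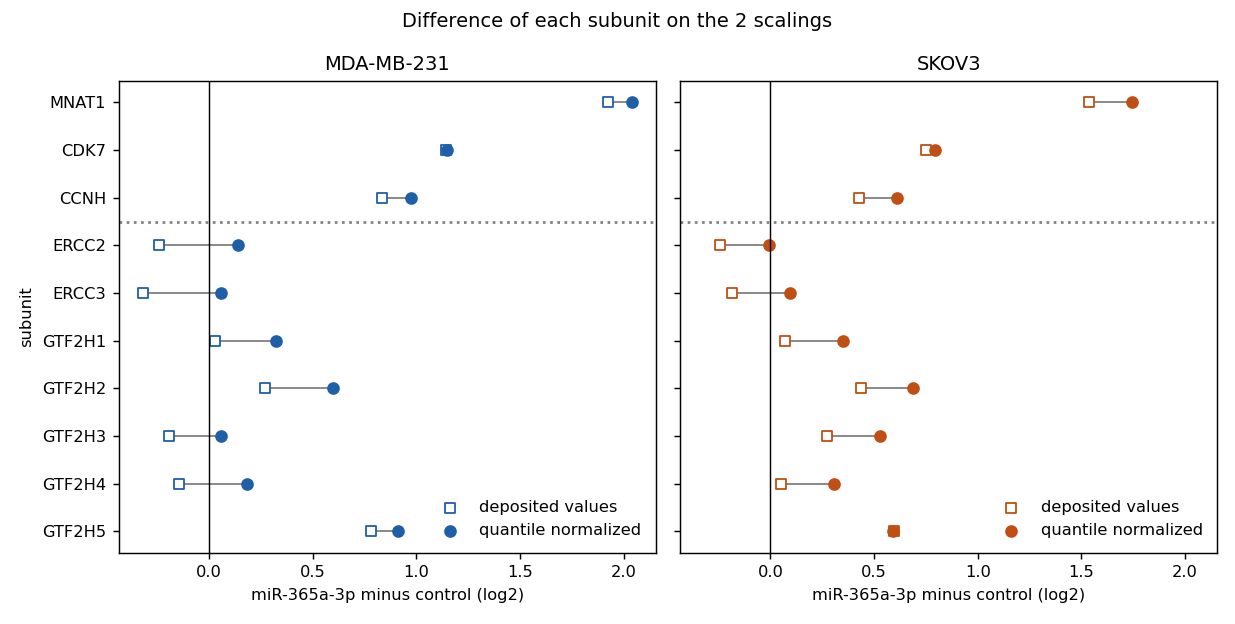
Difference of each subunit after miR-365a-3p (horizontal axis, log2) on the deposited values (open squares) and after quantile normalization across arrays (filled circles), with MDA-MB-231 on the left and SKOV3 on the right. MNAT1, CDK7, CCNH and GTF2H5 stay to the right of 0, while ERCC3 moves from -0.32 to 0.06 in MDA-MB-231 and from -0.19 to 0.09 in SKOV3 cells.

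The calls of CDK7, CCNH and GTF2H5 in MDA-MB-231 cells remained with each of the 11 arrays left out, with adjusted p of up to 0.00817, 0.00578 and 0.00839. Those in SKOV3 cells, which had 2 control arrays, depended on single arrays. Without SKOV3 control replicate 1, CCNH alone of the 9 was called, and without control replicate 2 none was, although 4 had an unadjusted p under 0.05 in each case. CDK7 then differed by 0.82 (limma adjusted p = 0.131) and 0.78 (limma adjusted p = 0.167), GTF2H5 by 0.61 (adjusted p = 0.169) and 0.58 (adjusted p = 0.204), and GTF2H3 by 0.55 (adjusted p = 0.135) and 0.52 (adjusted p = 0.176). CCNH differed by 0.45 (limma adjusted p = 0.267) without control replicate 2. Without SKOV3 miR-365a-3p replicate 1, GTF2H3 alone was called, with CDK7 at 0.72 (adjusted p = 0.0755), CCNH at 0.54 (adjusted p = 0.087) and GTF2H5 at 0.60 (adjusted p = 0.0733). Without miR-365a-3p replicate 3, none was called, with CDK7 at 0.73 (adjusted p = 0.0751), CCNH at 0.58 (adjusted p = 0.0821), GTF2H3 at 0.51 (adjusted p = 0.0745) and GTF2H5 at 0.51 (adjusted p = 0.103), while 5 had an unadjusted p under 0.05. Without miR-365a-3p replicate 2, GTF2H4 was called with a rise of 0.47 (adjusted p = 0.0212) and GTF2H3 was not (0.48, adjusted p = 0.0701). Leaving out MDA-MB-231 arrays, which share the estimate of the spread, also ended calls in SKOV3 cells, namely CCNH (adjusted p = 0.0521) and GTF2H5 (adjusted p = 0.0552) without miR-365a-3p replicate 2 and GTF2H5 (adjusted p = 0.0576) without control replicate 3. GTF2H2 was called in MDA-MB-231 cells without control replicate 2 of that line (0.79, adjusted p = 0.0357) and without SKOV3 miR-365a-3p replicate 1 (0.59, adjusted p = 0.0339).

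The response of the 9 subunits did not differ detectably between the lines. The difference of the differences was called for 0 of the 9 with limma, where 2.54% of all genes were called, and GTF2H3 alone had an unadjusted p under 0.05 (0.0275). The intervals were wide. SKOV3 minus MDA-MB-231 was -0.35 (95% interval -0.95 to 0.25) for CDK7, -0.36 (95% interval -0.84 to 0.11) for CCNH and -0.32 (95% interval -0.80 to 0.16) for GTF2H5. MNAT1 had -0.30 (95% interval -0.97 to 0.38).

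With control miRNA, several core subunits differed between the lines and no CAK subunit was called. This comparison was not used to choose the group. In it, 5 of the 10 subunits differed, against 16.1% of all genes (7.76% lower and 8.34% higher in SKOV3). That share also covers genes near the floor. The lowest control mean of a subunit, that of ERCC2 in SKOV3 at 7.68, lay at percentile 72.1. This signal was itself low, so the difference of ERCC2 between the lines is read as its least size. No share among genes of like signal was taken. ERCC2, ERCC3, GTF2H1 and GTF2H3 were lower in SKOV3 cells, by -0.50 (limma adjusted p = 0.00428), -0.62 (limma adjusted p = 0.00137), -0.63 (limma adjusted p = 0.0198) and -0.88 (limma adjusted p = 0.00184). GTF2H5 was higher there by 0.91 (limma adjusted p = 0.00392). MNAT1 (-0.60, adjusted p = 0.122), CCNH (-0.51, adjusted p = 0.0591) and CDK7 (-0.27, adjusted p = 0.518) were lower without a call, and GTF2H2 and GTF2H4 differed by -0.24 and -0.22. The calls of ERCC2, ERCC3, GTF2H3 and GTF2H5 were kept with each array left out, but GTF2H1 was not called without MDA-MB-231 control replicate 1 (adjusted p = 0.0618), SKOV3 control replicate 1 (adjusted p = 0.0943) or SKOV3 control replicate 2 (adjusted p = 0.14), nor on the deposited values (adjusted p = 0.139). MNAT1 was called without SKOV3 miR-365a-3p replicate 1 (-0.59, adjusted p = 0.013), and CCNH without SKOV3 miR-365a-3p replicate 2 (-0.51, adjusted p = 0.0497), MDA-MB-231 miR-365a-3p replicate 3 (-0.51, adjusted p = 0.0459) or MDA-MB-231 control replicate 1 (-0.60, adjusted p = 0.0495). Cell line and culture cannot be told apart in this comparison.

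The signals of CDK7 and CCNH followed that of MNAT1 across the arrays. After the mean of each cell line was taken off, the normalized signal of CDK7 over the 11 arrays had a Pearson r of 0.957 with that of MNAT1, CCNH 0.952, GTF2H2 0.893 and GTF2H5 0.892, and the remaining subunits between 0.419 (ERCC2) and 0.710 (GTF2H4). These values are a description, since the arrays share the 2 treatments and the correlation follows them. Among 15661 genes with a mean above the median of all genes, CDK7 took rank 881 by this measure and CCNH rank 1019. The 5 genes most like MNAT1 were STX7, RABL3, LIX1L, NSL1 and the gene listed as C14orf167 (now DHRS4-AS1), with r from 0.996 to 0.997. Their differences lay between 0.55 and 1.15 in MDA-MB-231 and between 0.47 and 0.89 in SKOV3 cells, below that of MNAT1. The control means of C14orf167, 7.46 in MDA-MB-231 and 7.58 in SKOV3, were near the floor, so its differences are read as the least size of its rise.

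Of 105 genes that work with TFIIH, in 6 lists, 32 rose and 30 fell in MDA-MB-231, and SKOV3 had 24 up and 13 down, of which 19 rose and 11 fell in both. Over all genes, those near the floor included, 14.4% rose and 11.7% fell in MDA-MB-231, and 7.25% and 7.11% in SKOV3. Nothing particular to the lists is read from their counts. This split depended on the scaling, since on the deposited values 20 rose and 39 fell in MDA-MB-231, and SKOV3 had 16 up and 21 down. With each array centred on its median, 24 rose and 34 fell in MDA-MB-231, and SKOV3 had 21 up and 20 down. Among 25 other factors of the preinitiation complex, 12 rose and 5 fell in MDA-MB-231, and SKOV3 had 8 up and 1 down (medians 0.18 and 0.15). TAF9, a TFIID subunit whose gene overlaps AK6, rose by 1.04 and 1.01, and GTF2B, which is TFIIB, rose by 1.05 and 0.78. TAF4, a scaffold of TFIID, fell (differences of -0.77 and -0.76), to 7.52 and 7.47. Of 12 subunits of RNA polymerase II, 5 rose and 3 fell in MDA-MB-231, and SKOV3 had 2 up and 1 down (medians 0.41 and 0.19). The gene that fell in both was POLR2A, which encodes the catalytic subunit whose tail CAK phosphorylates, with -1.47 (limma adjusted p = 0.00141) and -1.59 (limma adjusted p = 0.00344), to 7.44 and 7.43. Signals this low lie near the floor of the arrays, so that the differences of POLR2A and TAF4 are read as the least size of the fall, and the same holds for the other genes below whose signal with miR-365a-3p is given as near the floor. POLR2J rose by 0.56 and 0.54, with a call lost in both lines on the deposited values (limma adjusted p = 0.053 and 0.07). Its control means of 7.51 and 7.64 were near the floor, so these are read as the least size of the rise. POLR2H rose by 0.51 and 0.36. In SKOV3 cells, GTF2B (adjusted p = 0.102) and POLR2H (adjusted p = 0.0846) were not called on the deposited values either.

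The other transcription kinases and their partners were also split, with 4 of 13 genes up and 6 down in MDA-MB-231 and 3 up and 6 down in SKOV3 cells (medians -0.08 and -0.05). LARP7, which holds the RNA that restrains CDK9, rose by 1.37 and 0.99, and CCNC, the cyclin of the Mediator kinase, rose by 1.14 and 0.81. CCNK, the cyclin of CDK12, fell (differences of -1.68 and -1.69), and CDK12 (listed as CRKRS) fell (differences of -0.72 and -0.39). Both were near the floor with miR-365a-3p, CCNK at 7.45 and 7.56 and CDK12 at 7.37 and 7.61. The kinase partner and cyclin of this pair thus moved opposite to CDK7 and CCNH. Of 12 cell cycle genes, namely kinases that CAK activates and their cyclins, 1 rose and 5 fell in MDA-MB-231, and SKOV3 had 2 up and 1 down (medians -0.07 and 0.05). CDK4 rose by 0.50 and 0.60, while CDK6, which binds the same D-type cyclins, fell (differences of -2.24 and -1.36) to 7.59 and 7.62, near the floor. Of the 12, CDK6 and CCND2 were the ones whose difference was itself called between the lines. CCND2, a D-type cyclin named here after its values were seen, differed by -1.68 (limma adjusted p = 4.32e-05) in MDA-MB-231. Its difference was 0.01 (limma adjusted p = 0.991) for SKOV3, and SKOV3 minus MDA-MB-231 was 1.69 (limma adjusted p = 0.0029). A gene at the floor cannot fall, and the signal level of CCND2 in SKOV3 controls was not examined here.

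Nucleotide excision repair is the other work of TFIIH. Of 38 other factors of this pathway, 10 rose and 10 fell in MDA-MB-231, and SKOV3 had 9 up and 4 down (medians 0.03 and 0.12). RPA3, the small subunit of the single-strand binding complex, rose by 0.73 and 0.83. CETN2, a partner of the lesion sensor XPC, rose by 0.84 and 0.58. POLE, a subunit of a DNA polymerase of replication and of repair, fell (differences of -0.59 and -0.44) to 7.39 and 7.47, near the floor. Of 5 copies and assembly factors of TFIIH found among the 6 listed, only MMS19, which helps to load the iron-sulphur cluster of ERCC2, was called, in MDA-MB-231 cells (-1.19, limma adjusted p = 0.00173), with -0.35 (adjusted p = 0.395) in SKOV3 cells. Over the 6 lists, 37 genes were called in SKOV3 cells, but 16 without control replicate 1 of that line and 12 without control replicate 2.

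**Figure D4:**
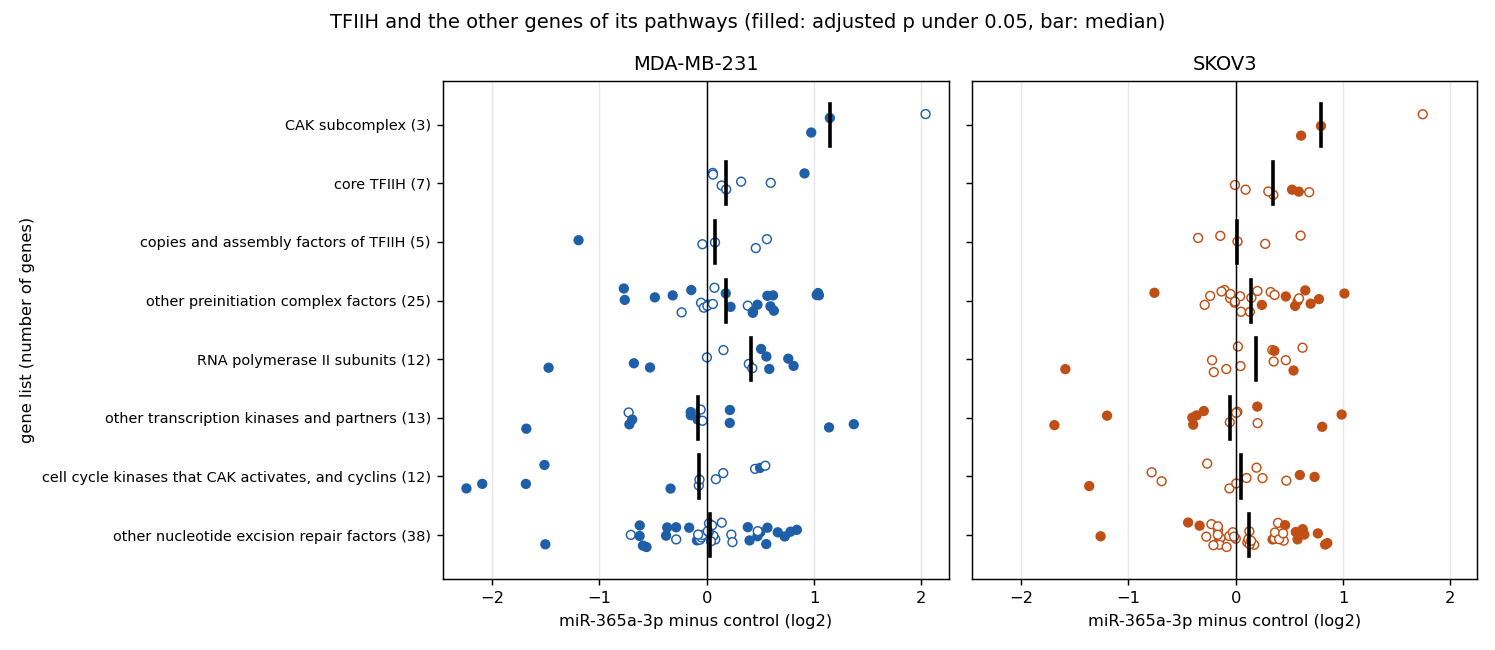
Difference of each gene after miR-365a-3p (horizontal axis, log2) for CAK, core TFIIH and 6 lists of genes that work with TFIIH, with MDA-MB-231 on the left, SKOV3 on the right, filled points for adjusted p under 0.05, open points for genes not called (MNAT1 was not tested) and bars for the median of each list. The medians lie between -0.08 and 0.41 for the 6 lists. CDK7 and CCNH lie at 0.97 and above in MDA-MB-231 cells and at 0.80 and 0.61 in SKOV3 cells.

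Single arrays decided many of the SKOV3 calls named for the pathways. Without control replicate 1, TAF9, GTF2B, POLR2J, LARP7, CCNC, CDK4, RPA3 and CETN2 were not called in SKOV3 cells, with adjusted p from 0.0631 to 0.187. Without control replicate 2, the same genes, POLR2H and CDK12 were not called, with adjusted p from 0.0679 to 0.326. POLR2H was also lost in SKOV3 cells without any single miR-365a-3p array of that line, and without MDA-MB-231 miR-365a-3p replicate 2 or any MDA-MB-231 control array (adjusted p from 0.0517 to 0.0891). CETN2 was lost there without SKOV3 miR-365a-3p replicate 1 or 2, any MDA-MB-231 miR-365a-3p array or MDA-MB-231 control replicate 1 (adjusted p from 0.0569 to 0.111). CDK4 was lost there without SKOV3 miR-365a-3p replicate 1 or 2, MDA-MB-231 miR-365a-3p replicate 2 or MDA-MB-231 control replicate 2 (adjusted p from 0.0526 to 0.089), and GTF2B without MDA-MB-231 miR-365a-3p replicate 2 (adjusted p = 0.0571) or control replicate 3 (adjusted p = 0.0532). In MDA-MB-231 cells, CDK4 was lost without miR-365a-3p replicate 1 (adjusted p = 0.1) or 2 (adjusted p = 0.0976) and without control replicate 1 (adjusted p = 0.101) or 2 (adjusted p = 0.0527). After cyclic loess, CDK4 was not called in either line (adjusted p = 0.124 and 0.118). TAF4, POLR2A, CCNK, CDK6 and POLE were called in both lines with each array left out.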

How the data were processed

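The 11 arrays were HumanHT-12 v4 BeadChips, and the groups come from the sample titles. Per the study's methods, the authors applied quantile normalization with lumi, and the deposited log2 values hold 1 row for each of 31325 gene symbols. The version, the transformation, the background correction and the rule that merged probes are not given in the sources used here. Because the columns did not share 1 distribution, they were quantile normalized again with limma 3.58.1 in R 4.3.3. Each gene was fitted with 4 group means and moderated variances (eBayes), with Benjamini-Hochberg adjustment across the 31325 genes and a threshold of 0.05. The fit was tested on simulated data. The subunits and pathway lists were chosen with earlier results of these data known. Named beyond the 10 subunits are, per pathway list, up to 2 genes with the largest rise and up to 2 with the largest fall among those called in both lines, the copies of GTF2H2, and the 5 genes most like MNAT1; 1 gene that this rule names is not reported here. MNAT1 chose the group and was not tested after miR-365a-3p. The scaling, a filter on low signals, the variance model, the samples in the fit, a replicate block and each array left out in turn were varied. Sequences came from RefSeq tables of GRCh38.p14.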

Additional observations from a re-analysis of the deposited data

Results flagged for a closer look

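The fall of CDK6, a cell cycle kinase that CAK activates, was flagged because it differed between the cell lines, with SKOV3 minus MDA-MB-231 at 0.874 on the log2 scale (adjusted p = 0.0129 from limma). With control miRNA, the mean signal was 9.83 (SD 0.18, n = 3) for MDA-MB-231 and 8.98 (SD 0.05, n = 2) for SKOV3. With miR-365a-3p it was 7.59 (SD 0.02, n = 3) for MDA-MB-231 and 7.62 (SD 0.13, n = 3) for SKOV3, and the control arrays of the lines differed by -0.85 (adjusted p = 5e-04 from limma). The signal ended near the floor of the arrays in both lines, so each fall is read as its least size. The 0.874 therefore cannot tell a different response to miR-365a-3p apart from the difference between the control arrays.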

How the results depend on the processing

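In MDA-MB-231 cells, 3 of the 9 tested subunits were called, and the count stayed between 3 and 4 under every alternative except the deposited values, which gave 5 (3 up, 2 down). The 4 called after median centring were 3 up and 1, ERCC3, down. In SKOV3 cells, 4 were called, against 2 on the deposited values, 2 with each array centred on its median, 2 with each line fitted alone, 5 with an intensity trend and robust variance (GTF2H2 added), 0 after cyclic loess (limma, 5 at an unadjusted p under 0.05) and between 0 and 4 with 1 array left out. The replicate number as a block gave 3 in MDA-MB-231 cells and 1, GTF2H5, in SKOV3 cells. The numbers share no stated origin, and same-numbered arrays correlated in their deviations from the group means by -0.125, 0.0424 and 0.232 in MDA-MB-231 cells. The 37 pathway genes called in SKOV3 cells were 23 with each line fitted alone, 24 with the replicate block and between 12 and 38 with 1 array left out. Signs turned for ERCC2 (-0.24 and -0.21), ERCC3 (-0.32 and -0.29), GTF2H3 (-0.19 and -0.16) and GTF2H4 (-0.15 and -0.11) in MDA-MB-231 cells and for ERCC3 (-0.19 and -0.15) in SKOV3 cells, each on the deposited values and after median centring, and for ERCC2 in SKOV3 cells after cyclic loess (0.042). With 1 array left out, values near 0 also changed sign, with ranges from -0.064 to 0.057 for ERCC2 in SKOV3 cells and, in MDA-MB-231 cells, from -0.0028 to 0.14 for ERCC3 and from -0.023 to 0.18 for GTF2H3. The causes were not tested. The number of arrays limits the precision.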
